A study of Drosophila melanogaster with 2 samples.

Results

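Broad Sin3A peaks of modest score are stretches of embryonic chromatin that were called as wide Sin3A peaks with a score below a set limit. They were chosen by the width and the score that the authors' peak list gives each peak: a width of at least 1300 bp and a score under 550, on the chromosome arms 2L, 2R, 3L and 3R. The rule found 437 peaks among the 3277 of these arms (13.3%) and the 4046 of the complete list. The 2054 narrower peaks of these arms that also scored under 550 served as the reference.

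The material was whole embryos of Drosophila melanogaster, aged between 0 and 12 h at collection. The labels' general growth protocol names iso1 (y; bw cn sp) or transgenic flies and does not say which gave this sample; no treatment was applied. An antibody to Sin3A was used, and an aliquot of chromatin served as input. The data are 1 list of peaks from 1 ChIP sample, whose title joins replicates 1 and 2, so no peak has a replicate error. The input, the other sample, was not used here, and the read depth is unknown.

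Sin3A is the scaffold of a conserved corepressor complex. It binds no DNA by itself; sequence-specific factors recruit it, and it carries the histone deacetylase Rpd3, which removes acetyl groups from histone tails. In ChIP-seq, a peak caller joins neighbouring stretches of enriched reads into 1 region, so a wide region can hold a single long stretch of binding or several sites that lie close together. Embryos of this age range from syncytial nuclei to forming organs. In such a mixture, modest binding in many cells and strong binding in few cells cannot be told apart.

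Widths of the broad peaks of modest score ran from 1300 to 2889 bp around a median of 1511 bp, with quartiles at 1406 and 1689 bp. Their scores, which the authors gave each peak on a scale that the file does not name, ran from 50.75 to 547.07 around a median of 344, with quartiles at 240 and 454. For the narrower peaks the medians were 824 bp and a score of 159. These values follow from the rule and are given as a description. Across all 3277 peaks of these arms the median score was 265. Modest thus means a score under 550 here, and not a score that is low among these peaks. The broad peaks made up 45.0% of the 972 peaks of at least 1300 bp on these arms, and with 698 kb they covered 19.1% of the sequence under all peaks of these arms. Only 40 of them reached 2000 bp. Within the chosen peaks width and score were only weakly related (Spearman's rho 0.113 across 437 peaks), while across all 2491 peaks under 550 rho was 0.576. Both limits of the rule, and the fact that width and score come from the same reads, bear on these correlations.

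**Figure D1:**
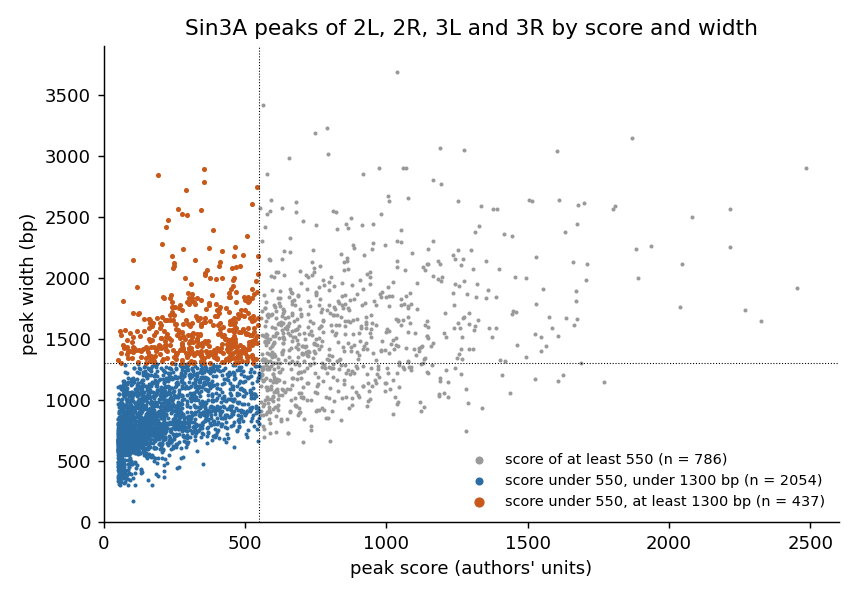
Width (bp) against score (authors' units) for every Sin3A peak of 2L, 2R, 3L and 3R, with the limits of 1300 bp and 550 as dotted lines. The 437 broad peaks of modest score (orange) lie above the 2054 narrower ones (blue).

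The peaks nearest to each limit were as follows. Positions are given on the BDGP5 build, counting from 1, and genes under the peaks were not analysed here. The narrowest chosen peaks, chr2R:13472581-13473880 and chr2R:19589253-19590552, were both 1300 bp wide, with scores of 150.63 and 465.59. Just outside lay chr3R:18406211-18407509 and chr2R:3826007-3827305, both of 1299 bp, with scores of 183.83 and 252.46. The chosen peak of highest score, chr3R:27077554-27079227, scored 547.07. The first broad peak past the limit, chr2L:8414614-8417189, scored 551.77.

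Broad peaks were more common at higher scores, a relation that the rule itself used. Of the 618 peaks scoring from 50 to 100, 2.59% were broad, against 18.2% of the 253 from 200 to 250 and 48.2% of the 110 from 500 to 550. The median width of the broad peaks ran from 1431 bp in the lowest of 10 bands of 50 score units to 1602 bp between 200 and 250, and was 1540 bp in the highest band. To set the broad peaks against narrower peaks of equal score, the narrower peaks of each band were weighted by the number of broad peaks in it. The weighted median score of the narrower peaks was then 345, against 344 for the broad peaks.

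Of the 10 widest of these peaks, 5 lay on 2L, 2 on 2R, 2 on 3R and 1 on 3L. The peak chr2L:4967035-4969923 was 2889 bp wide, the 16th widest of the list, yet ranked 1626 by score (355.02). A stronger peak of 1295 bp (score 810.67) lay 1009 bp away. The peak chr2L:478635-481481, of 2847 bp, had the lowest score among the 10 widest (193.03, rank 2478), and its nearest peak, 4848 bp away, scored 109.81. On 2R the widest was chr2R:5030552-5033336, of 2785 bp (score 353.12), with 13 other peak midpoints within 50 kb. The widest on 3L, chr3L:14778217-14780819, had 2603 bp and a score of 525.59. Its nearest peak, 1964 bp away, scored 1308.98. The widest on 3R, chr3R:57017-59583, had 2567 bp and a score of 262.22, and only 2 other midpoints lay within 50 kb of it. The 10 widest thus had neighbours both much stronger and much weaker than themselves.

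At the weak end, 16 of the broad peaks scored under 100. The lowest score, 50.75, belonged to chr2R:18821281-18822606, of 1326 bp, which lay 842 bp from a peak of 1388 bp scoring 456.85. The next, chr2R:17137779-17139344, had 1566 bp and scored 58.72, with its nearest peak 29877 bp away. The third, chr3R:8226713-8228018, had 1306 bp and scored 61.71. The widest peak that scored under 100 was chr3L:16601910-16603718, of 1809 bp (score 67.40). The lowest score among all 4046 peaks of the list was 50.05.

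The first comparison asked where along the chromosome the broad peaks lay in relation to other Sin3A peaks. The rule did not use the neighbours, but the same borders set the width of a peak and its gaps. A caller that joins close stretches makes a wider peak with fewer close neighbours. Shares at short range are thus not independent of the rule, and how far this bears on them was not tested. Their surroundings differed from those of narrower peaks in opposite ways at short and at long range: immediate neighbours were fewer, and neighbours several kilobases away were more common. Gaps were counted from edge to edge, to the nearest peak of any score and width. Within 500 bp, 62 of 437 broad peaks had another peak, or 14.2% (95% exact binomial interval 11.1 to 17.8), against 21.7% of narrower peaks of equal score and 20.8% of all peaks of these arms. The difference was -7.56 percentage points (interval -11.7 to -3.38). Broad peaks had the lower share in all 10 score bands and on all 4 arms, where the differences ran from -10.1 to -2.76 points. A gap of at most 100 bp was found for 20 of the broad peaks, or 4.58%, against 11.4% of narrower peaks of equal score. The 95% intervals of shares and differences cover counting error only and treat peaks as independent, whereas peaks cluster, so they are too narrow. With a single list, no test over samples was possible.

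At longer range the difference turned. Within 5 kb, 320 of 437 broad peaks had another peak, or 73.2% (interval 68.8 to 77.3), against 65.8% of narrower peaks of equal score and 67.4% of all peaks of these arms. The difference was 7.42 points (interval 2.19 to 12.6). It was above 0 on 3 of 4 arms and -3.12 points on 3L, and without 2L it was 4.62 points (interval -1.39 to 10.6). By arm, only 2L had an interval off 0 (7.93 to 27.3). Within 10 kb the shares were 88.8% for broad peaks (388 of 437, interval 85.4 to 91.6), 80.7% for narrower peaks of equal score and 82.5% for all peaks, a difference of 8.08 points (interval 4.09 to 12.1). It was above 0 on each of the 4 arms, from 1.31 points on 3L to 11.7 on 2L. Its interval included 0 on 2R (-0.44 to 15.6) and 3L (-8.61 to 11.2). No peak lay within 20 kb of 27 broad peaks (6.18%), against 10.2% of narrower peaks of equal score and 9.28% of all peaks, with differences of -0.04 points on 3L and -0.63 on 2R.

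**Figure D2:**
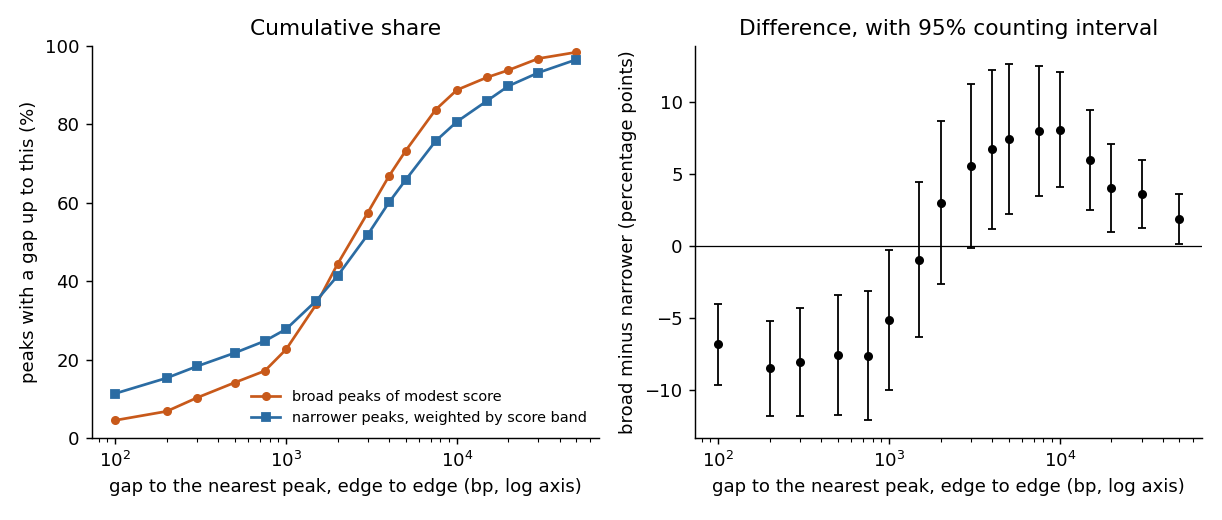
Left, the cumulative share of peaks (%) whose nearest peak lies within a given edge-to-edge gap (bp, log axis), for the 437 broad peaks of modest score (orange) and for narrower peaks weighted by score band (blue). Right, the difference in percentage points with its 95% counting interval: it is -7.56 at 500 bp, near 0 at 1500 bp (-0.95) and 8.08 at 10 kb.

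An edge-to-edge gap is shorter for a wide peak than for a narrow one with the same midpoint, and a midpoint distance has a higher minimum for a wide peak. With midpoints in place of edges the difference within 5 kb was 4.77 points (interval -0.78 to 10.3). A ring around each midpoint, from 2.5 to 10 kb on either side, was chosen after the gaps had been seen. Width still bears on which neighbours fall in it, since a midpoint distance is the gap plus part of both widths: beside chr2R:8475191-8477908, of 2718 bp, a peak 688 bp away counted as a ring neighbour. In this ring 347 of 437 broad peaks had another midpoint, or 79.4% (interval 75.3 to 83.1), against 67.3% of narrower peaks of equal score and 70.6% of all peaks of these arms. The difference was 12.1 points (interval 7.15 to 17.0), was above 0 in 8 of 10 score bands, and ran from 7.38 points on 3L to 17.4 on 2L. Its interval included 0 on 3L (-4.10 to 18.9) and 3R (-0.74 to 16.7). By arm, the ring held another midpoint for 73 of 88 broad peaks on 2L, 99 of 120 on 2R, 65 of 88 on 3L and 110 of 141 on 3R. With the distance of 2.5 to 10 kb counted from edge to edge instead, the shares were 74.6% for broad peaks (326 of 437), 65.7% for narrower peaks of equal score and 69.1% for all peaks. That difference was 8.89 points (interval 3.72 to 14.0), again above 0 on all 4 arms, from 4.28 points on 3R to 16.3 on 2L. By arm, its interval lay off 0 on 2L only (5.82 to 26.7). It included 0 on 2R (-0.72 to 18.7), 3L (-8.03 to 16.6) and 3R (-4.88 to 13.4). With midpoints 5 to 10 kb away the difference over the 4 arms was 8.22 points (interval 2.55 to 13.9).

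**Figure D3:**
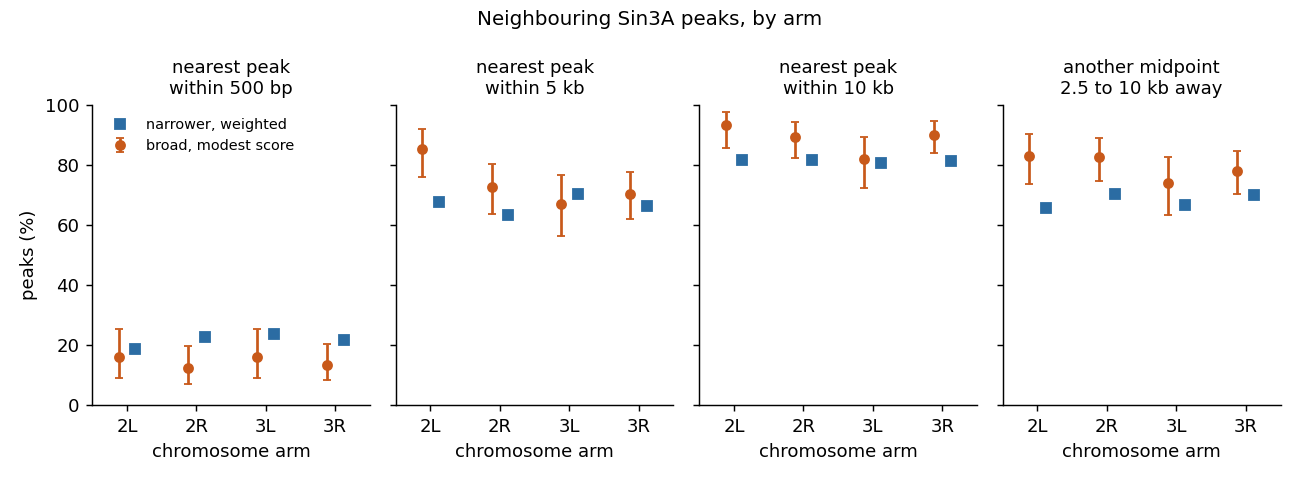
Share of peaks (%) with a neighbour, by chromosome arm, for 4 definitions of a neighbour. Orange points are broad peaks of modest score with 95% exact binomial intervals, and blue squares are narrower peaks weighted by score band; within 500 bp orange lies below blue on all 4 arms, and from 2.5 to 10 kb it lies above on all 4.

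The share with a midpoint in this ring was higher in wider classes of peak on both sides of the limit of 1300 bp, with 1 exception. Weighted to the same mix of scores, another midpoint lay 2.5 to 10 kb away for 55.2% of peaks under 700 bp, 64.9% from 700 to 999 bp and 72.7% from 1000 to 1299 bp. Among the broad peaks it was 78.9% from 1300 to 1499 bp (209 peaks), 76.6% from 1500 to 1799 bp (150 peaks) and 85.6% at 1800 bp or more (78 peaks). The intervals of neighbouring classes overlapped throughout, while those of the narrowest (47.8 to 62.6) and the widest class (78.3 to 93.0) did not. Counted from edge to edge, the shares were 49.8, 63.7 and 70.7% in the 3 narrower classes and 73.1, 76.7 and 76.4% in the 3 broad ones, so the broad classes lay closer to the class just below the limit. Nothing in these values sets the limit of 1300 bp apart from other widths. For a nearest peak within 500 bp the weighted share was 16.2% under 700 bp, 24.1% from 700 to 999 bp, 18.1% from 1000 to 1299 bp and 12.5 to 15.8% in the 3 broad classes. Without the weighting the shares of the first 4 classes were 29.5, 27.0, 19.9 and 12.9%, so their order depends on the weighting by score. The narrowest and the widest class each had a score band with a single peak, so their weighted shares rest on few peaks there. Such a band adds nothing to the width of the interval. The intervals of both classes are therefore too narrow, and no conclusion is drawn from their lack of overlap.

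**Figure D4:**
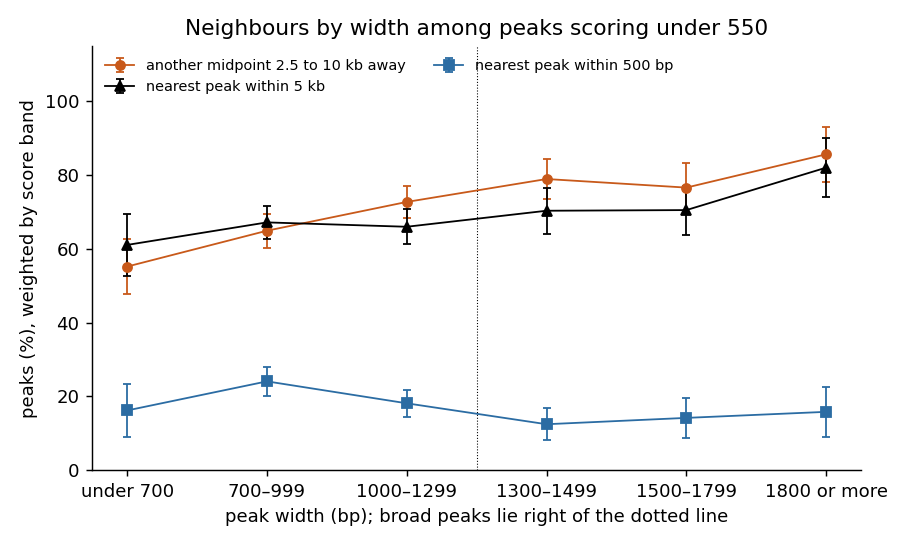
Share of peaks scoring under 550 (%, weighted to the score mix of the broad peaks) with a neighbour, by peak width (bp), with 95% counting intervals. The share with a midpoint 2.5 to 10 kb away (orange) runs from 55.2% under 700 bp to 85.6% at 1800 bp or more, and the share with a peak within 500 bp (blue) stays between 12.5% and 24.1%.

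Whether broad peaks of higher score differed from narrower ones in the same way depended on the measure. Among the 786 peaks of these arms that scored at least 550, compared in 10 groups of equal number by score, another midpoint lay 2.5 to 10 kb away for 68.2% of the 535 broad peaks and 67.0% of the narrower ones. That difference, 1.26 points (interval -6.44 to 8.96), was 10.8 points below the one at modest score (interval 1.67 to 19.9). Counted from edge to edge, the differences were 1.96 points at high and 8.89 at modest score, and the contrast of 6.92 points had an interval that included 0 (-2.36 to 16.2). For a nearest peak within 10 kb the differences were 3.29 and 8.08 points (contrast 4.79, interval -3.36 to 12.9). For a nearest peak within 5 kb the broad strong peaks also had the higher share (61.3% against 53.1%), by 8.19 points against 7.42 at modest score (-0.77 points between them, interval -10.8 to 9.31). Within 500 bp the difference was -7.56 points at modest and -1.83 at high score, which is -5.74 points between them (interval -12.003 to 0.53).

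The next comparison asked what kind of peak the neighbours were. No difference in the strength or the width of the nearest peak was detected between broad peaks and narrower peaks of equal score. It scored at least 550 for 91 of 437 broad peaks, or 20.8% (interval 17.1 to 24.9), against 20.8% of narrower peaks of equal score and 21.0% of all peaks of these arms (difference 0.05 points, interval -4.61 to 4.72). It was at least 1300 bp wide for 122 broad peaks, or 27.9% (interval 23.8 to 32.4), against 26.4% and 27.8% (difference 1.55 points, interval -3.55 to 6.65). It scored higher than the peak itself for 38.4% of broad and 40.9% of narrower peaks. The intervals allow differences of several points in either direction. The median score of the nearest peak was 255 (interval of the median 208 to 284) beside broad peaks and 234 beside narrower ones.

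The nearest peak was itself broad and of modest score for 14.2% of these peaks, against 12.9% of narrower peaks of equal score and 13.7% of all peaks. Along the arms, 313 (71.6%) had no other broad peak of modest score next to them, while the rest formed 59 pairs and 2 runs of 3. Only 13.3% of the peaks of these arms were chosen, and no such share was computed for other peaks. These counts are therefore a description only. One run, chr3R:8254195-8260445, packed peaks of 1632, 1498 and 1652 bp into 6.25 kb, with scores of 174.10, 159.49 and 454.96. The other, chr2R:17137779-17181993, spread peaks of 1566, 1548 and 1787 bp over 44.2 kb, with scores of 58.72, 504.78 and 396.20. Thus the first is a compact group, and the second is 3 separate peaks with nothing else called between them.

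The median gap to the nearest peak was 2327 bp (interval of the median 2041 to 2647 bp), against 2834 bp for narrower peaks of equal score. The difference of -507 bp was -139.5 bp between midpoints (interval -483 to 127) and -319 bp without 2R (interval -681 to -20). The interval also included 0 without 2L (-416 bp, -767 to 175) and at a width of 1200 bp (-372 bp, -633 to 11). With only peaks scoring at least 100 it did so too (-494 bp, -931 to 144). The gap was shorter than in the reference on 2L, 2R and 3R and longer on 3L (2512 against 2244 bp). The farther of the flanking peaks lay at a median of 14490 bp, against 21375 bp, although on 3R it lay farther away than in the reference (22387 against 18218 bp). The median number of other midpoints within 50 kb was 6 (quartiles 4 and 8, highest 16), against 5 for narrower peaks of equal score and 6 for all peaks, and the difference was 0 when peaks up to 500 bp apart were joined. The crowded extreme was chr2R:19944214-19946466, of 2253 bp and score 463.00, with 16 midpoints within 50 kb.

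At the closest, chr2R:16149782-16151211 (1430 bp, score 301.35) was separated by 2 bp from a peak scoring 77.39. The peak chr3R:2231893-2233432 (1540 bp, score 509.91) lay 3 bp from one scoring 484.94. The peak chr2R:20062189-20063527 (1339 bp, score 256.10) lay 5 bp from one scoring 562.19. Pairs as close as these are split by the caller's borders, and joining them would make 1 wider region.

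No other midpoint lay within 50 kb of 7 of the 437 (1.60%), against 3.48% of narrower peaks of equal score and 3.08% of all peaks. The most isolated was chr3R:1833092-1834551, of 1460 bp and score 434.98, with its nearest peak 144664 bp away. It was followed by chr3L:21862-23276 (1415 bp, score 189.87), the first peak of its arm, at 122919 bp, and by chr2L:9165965-9167399 (1435 bp, score 444.13) at 85178 bp. The 5 most isolated were between 1415 and 1544 bp wide, a range that includes the median of the group, 1511 bp.

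The last comparison asked how the broad peaks were spread over and along the arms. Arm 3R held 141, 2R held 120, and 2L and 3L held 88 each. Broad peaks were 19.5% of the peaks under 550 on 3R (interval 16.7 to 22.6), 18.8% on 2R (15.8 to 22.0), 16.2% on 2L (13.2 to 19.5) and 15.1% on 3L (12.3 to 18.2), and these intervals overlapped. At equal score, 3L held 20.1% of the broad and 25.2% of the narrower peaks, a difference of -5.09 points (interval -9.81 to -0.37). The interval included 0 with a score limit of 650 (-2.10 points, -6.56 to 2.37), with close peaks joined (-1.62, -5.99 to 2.74), with a width of 1500 bp (-5.19, -11.0 to 0.62) and with peaks scoring at least 100 (-4.66, -9.53 to 0.22). The differences of 3R (4.15 points, interval -1.12 to 9.42), 2R (2.94, interval -2.11 to 7.99) and 2L (-2.00, interval -6.65 to 2.65) had intervals that included 0. The centromere end of each arm was taken as the 2 Mb counted from the outermost peak on that side. These ends held 18 broad peaks, or 4.12% (interval 2.46 to 6.43), against 6.42% of narrower peaks of equal score and 6.41% of all peaks of these arms. The difference of -2.30 points (interval -4.73 to 0.14) was below 0 on all 4 arms, with 12 of the 18 peaks on 3R.

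Along the arms, nearly every stretch of 1 Mb held some of the broad peaks. Over 93 complete bins of 1 Mb the median was 4 broad peaks (range 0 to 12), and the variance of the count was 1.34 times its mean, against 3.07 times for narrower peaks. The narrower peaks were more numerous, with a median of 21 per bin, and this ratio depends on the mean count, so the values are given without a comparison. Bins with many narrower peaks tended to hold many broad ones (Pearson's r 0.537, Spearman's rho 0.548 across 93 bins, which share their position along 4 arms). The fullest bin, chr2R:19000001-20000000, held 12 broad and 43 narrower peaks. Bins with 10 broad peaks were chr2L:1-1000000, chr3R:19000001-20000000, chr3R:25000001-26000000 and chr2R:18000001-19000000. Broad peaks were 21.8% of the peaks under 550 in the fullest bin and 25, 33.3, 34.5 and 38.5% in these others, in the order given, against 17.5% over the 4 arms. These bins were picked for their number of broad peaks, so high shares in them follow in part from that choice. Among the bins not picked, chr2L:12000001-13000000, with 8 broad and 11 narrower peaks, had 42.1%. The bins with 0 broad peaks, chr2L:14000001-15000000 and chr2R:1-1000000, held only 6 and 5 peaks of any kind.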

How the data were processed

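The submitters' processing notes name Bowtie as the aligner and BDGP5 as the genome build, and MACS is the peak caller per the file header. Not given in the sources used here are their versions, the calling threshold, how the input was used and how replicates 1 and 2 were joined. Each deposited peak has borders and a score; the score has no named scale and served only to rank and band peaks within this list. Starts were read as counting from 0 and are printed from 1. Genes and sequences of BDGP5 were not used here, since the only gene table describes Release 6, so regions are named by position.

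The choice of peaks, comparisons and regions to name was made with earlier results of these data known. Regions to name were the 10 widest broad peaks, the widest in each band and on each arm, the 3 of lowest score, the 5 closest to and 5 farthest from another peak, runs of at least 3, the 5 fullest 1 Mb bins and the peaks next to each limit; the most telling are printed. The gaps of 500 bp and 10 kb, distances of 2.5 to 10 kb, the width classes and the comparison with peaks scoring at least 550 were added after the gaps had been seen. Differences are between broad peaks and narrower peaks weighted over 10 bands of 50 score units. Intervals are 95% exact binomial (shares), order-statistic (medians) or normal (differences of shares, and weighted shares by width class). For a difference in medians, the reference median was subtracted from the order-statistic interval of the broad peaks. The error of the reference median is left out there. High coordinates of 2L and 3L and low coordinates of 2R and 3R were read as centromere-facing. The calculations were tested on simulated data. Python 3.11.15, NumPy 2.4.6, pandas 2.3.3, SciPy 1.17.1 and Matplotlib 3.10.9 were used.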

Additional observations from a re-analysis of the deposited data

How the results depend on the processing

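Of 147 recomputed differences, 144 stayed inside the counting interval of the reported value, and none whose interval lay off 0 changed sign. Some settings overlap or repeat one another. A value also counted as inside where its own interval included 0, such as within 5 kb without 2L (4.62 points, -1.39 to 10.6). The count is therefore no measure of how firm the differences are. The settings were widths of 1200 and 1500 bp, score limits of 450 and 650, 10 bands of equal peak number, only peaks scoring at least 100, joining peaks up to 500 bp apart, leaving out each arm or the lowest band, and other distances. The difference in midpoints 2.5 to 10 kb away ran from 8.22 points (midpoints 5 to 10 kb away) to 13.4, and that within 500 bp from -8.91 to -4.50, the latter at 1500 bp (interval -9.73 to 0.73). Joining was not applied to the share within 500 bp, because it removes all such gaps. The difference within 5 kb ran from 3.01 points (within 2 kb, interval -2.64 to 8.67) to 9.50. The difference in median gap, -507 bp, became -886 bp when peaks were joined and -139.5 bp between midpoints (interval -483 to 127), and was -319 bp without 2R. Its interval also included 0 without 2L, at a width of 1200 bp and with only peaks scoring at least 100. Within 50 kb the difference of 1 midpoint fell to 0 when peaks were joined. Joining left 607 broad regions of modest score, of which 182 arose from narrower peaks alone, so the make-up of the group depends on how close peaks are split. No paired analysis was possible because replicates 1 and 2 are joined in 1 list; for the same reason no replicate could be left out. The depth is unknown.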

Other observations

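The same width and score limits met few peaks outside the 4 large autosomal arms. Without weighting by score, 437 of the 2491 peaks scoring under 550 on the 4 arms (17.5%) were at least 1300 bp wide. On the X, 18 of 516 were, and on chromosome 4, 0 of 26 were. The 8 peaks on the heterochromatic sequences and the 4 on Uextra did not meet the limits either.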
